A study of Ziziphus jujuba var. spinosa with 24 samples.

Results

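Leaves of diploid sour jujube held under osmotic drought for 48 h were compared with leaves of untreated diploid plants, gene by gene, by RNA sequencing. The comparison used 6 of the 24 libraries of the study, 3 from the 48 h leaves and 3 from the diploid controls, chosen by their labels for ploidy and treatment. All 32527 genes in the count table were considered, and 25829 had enough reads to be tested. Sour jujube (Ziziphus jujuba var. spinosa) is a wild form of the jujube tree. The study also took diploid leaves at 6 and 12 h and an autotetraploid, a line with a doubled set of the same chromosomes, at the same times. Diploid plants carry the genotype label wild type and had passed through over 20 generations of tissue culture. Plants spent 30 days in culture and 45 days in rooting medium, then moved to 3% Hoagland and Arnon solution, 3 days in the dark and 7 days in the light. Drought was imposed with PEG6000, a polymer that withholds water from the roots, raised through 5, 10 and 15% to 20% in daily steps. The sources used here do not relate the 48 h harvest to these daily steps, nor give the hour of day at which any leaf was taken. Control leaves came from plants of the same ploidy kept in a control environment.

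Plants that lose water close their stomata, which limits the carbon dioxide available for fixation by rubisco, the enzyme that rubisco activase keeps in its active state. Leaf growth slows as well: expansins loosen cell walls so that cells can enlarge, and aquaporins, channel proteins of the plasma membrane and vacuole, set how easily water crosses membranes. Catalase breaks down the hydrogen peroxide that photorespiration produces in leaves. These genes are followed here because a reference table gives them names. For nearly all other genes it gives an identifier only, so they are described by their values and given no role.

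The leaf label was checked against the table. Rubisco activase transcripts were abundant, with RCA2 at 8067 to 13425 CPM (counts scaled to the library total) in the 6 libraries. The floral meristem gene LFY had 9, 5 and 7 counts in the controls and 0, 0 and 8 counts at 48 h, and AP1 had none in these libraries. Library totals ran from 36575055 to 50404402 counts. Bulk RNA cannot tell fewer cells of a type from less RNA per cell.

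After 48 h, few genes differed from the controls beyond the spread between libraries. Of 25829 tested genes, 520 passed an adjusted p of 0.05 (2.01%), with 285 higher at 48 h (1.10%) and 235 lower (0.910%). The test was the quasi-likelihood test of edgeR, adjusted over all tested genes by Benjamini-Hochberg, and genes that passed are termed called. The 48 h and control libraries did not overlap in 515 of the 520, beside 23.2% of all tested genes. The calls rest on the gap between these same libraries, so this count gives them no separate support. Most of the shifts were small: 339 of the 520 were under 2-fold, 181 were 2-fold or more and 51 were 4-fold or more. Among the genes of 4-fold or more, 33 were higher and 18 lower. Among those under 2-fold, 199 were higher and 140 lower. Genes called higher had a median log2 fold change of 0.58 (quartiles 0.39 and 1.16), and genes called lower had a median of −0.82 (quartiles −1.34 and −0.54). Over all tested genes the median was 0.01. Gene models Ziziphus_jujuba_newGene_4071 and Ziziphus_jujuba_newGene_2997 had no read in the 3 controls and means of 0.317 and 1.62 CPM at 48 h. Held at the fold that 3 counts per library allow, they leave both medians as they are. Called genes were also more abundant, with a median of 34.4 CPM beside 10.4 CPM over all tested genes.

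**Figure D1:**
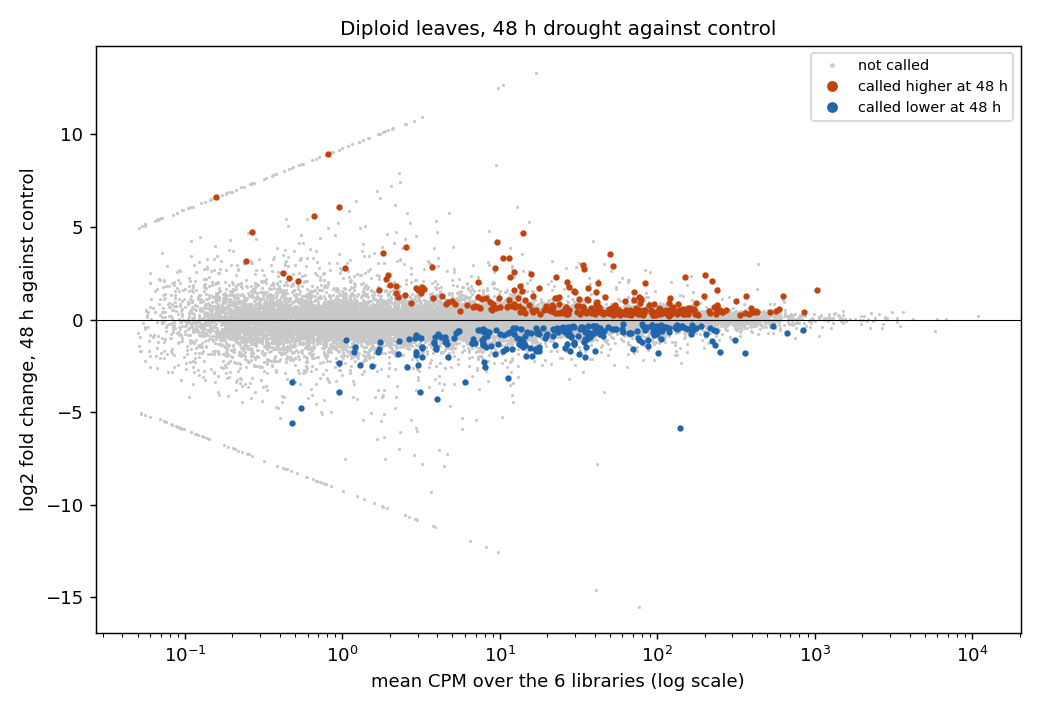
Each point is a gene with a mean of 0.05 CPM or more, placed by its mean CPM over the 6 libraries (horizontal, log scale) and its log2 fold change at 48 h against control (vertical); genes called higher are orange, genes called lower are blue and others are grey. The 285 orange and 235 blue points lie mostly at moderate to high levels and within 2-fold of no change, while uncalled points at low levels spread widely.

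The size of this list depended on which libraries entered the fit. The smallest adjusted p was 0.0083, and 4800 genes (18.6%) had an unadjusted p under 0.05. With the 6 compared libraries alone, 25 genes passed, 13 of them among the 520. With the control and 48 h libraries of both ploidies 16 passed, again 13 of them among the 520. Leaving out 1 library gave 849 genes without control replicate 1, 36 without control 2 and 173 without control 3. It gave 231, 136 and 88 without 48 h replicates 1, 2 and 3. Of the 520 genes, 20 passed in all 6 of those fits, 218 passed in a single one of them and 57 in none. DESeq2, a further test on all 24 libraries, called 1835 genes. On simulated counts 71 of its 218 calls were false, beside 7 of 135 with edgeR, so a pass with DESeq2 alone carries less weight below.

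**Figure D2:**
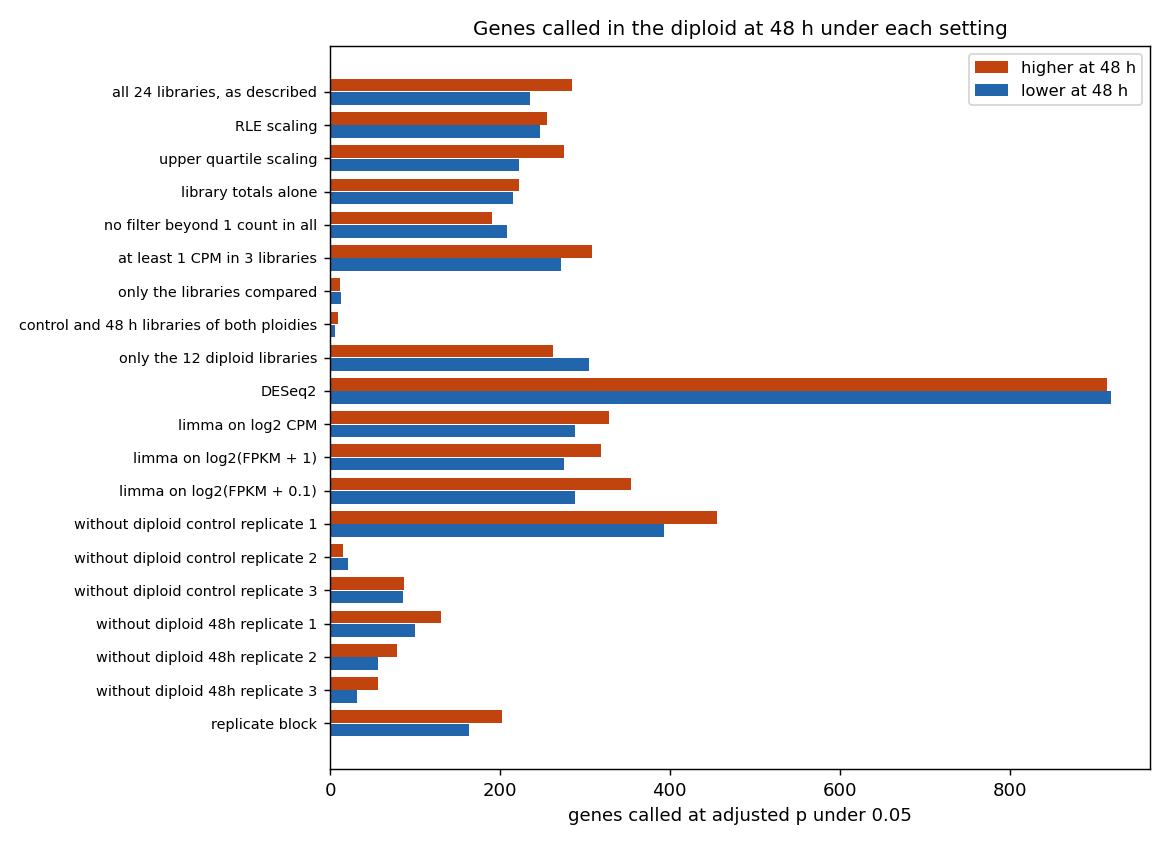
Bars give the number of genes called higher (orange) and lower (blue) at 48 h, on a linear axis from 0, under each way of fitting the data. Bars are longest with DESeq2, at 915 higher and 920 lower, and shortest where only the control and 48 h libraries were fitted or control replicate 2 was left out.

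A water channel showed the largest shift among the genes with a name. ZjPIP2, an aquaporin of the plasma membrane, stood at 236, 207 and 181 CPM in the controls and at 792, 617 and 564 CPM at 48 h. Every 48 h library was above every control. Its mean went from 208 ± 27.3 to 658 ± 119 CPM (SD, n = 3), 3.16-fold, with a log2 fold change of 1.66 ± 0.72 (SE). This did not pass the threshold (adjusted p = 0.23) in the 24-library model. In a model of the 6 libraries alone it did, with a log2 fold change of 1.64 and an adjusted p of 0.046. It passed under no other setting run. The adjusted p was 0.15 with DESeq2, 0.10 with the 12 diploid libraries and 0.27 to 0.40 on leaving out 1 library. In FPKM (fragments scaled by length and library total) ZjPIP2 had 108, 109 and 58.0 in the controls and 256, 273 and 296 at 48 h. The groups were apart in this measure too, but the 48 h libraries stood in the opposite order to their CPM. The cause was not tested. In the same ploidy the aquaporin stood at 170.0 ± 139.8 CPM at 6 h and 42.8 ± 9.66 CPM at 12 h. The autotetraploid libraries varied widely, at 342 ± 322 CPM in its controls and 413 ± 321 CPM at 48 h.

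All 3 expansin genes with a name were lower in every 48 h library than in any control; groups were likewise apart, in either direction, in 23.2% of all tested genes. EXPA4 stood at 438, 577 and 472 CPM in the controls and at 315, 284 and 327 CPM at 48 h. EXPA5 went from 312, 472 and 407 CPM to 214, 154 and 209 CPM. The expansin-like gene EXPL1 had 13.4, 16.9 and 16.5 CPM in the controls and 10.96, 9.63 and 7.67 CPM at 48 h. These expansin groups did not overlap, but none passed the threshold: the log2 differences were −0.68 ± 0.27 for EXPA4, −1.05 ± 0.35 for EXPA5 and −0.73 ± 0.23 for EXPL1, with adjusted p of 0.19, 0.11 and 0.11. With the 12 diploid libraries alone all 3 passed, at adjusted p of 0.034, 0.043 and 0.040. With DESeq2 EXPA5 and EXPL1 passed (adjusted p = 0.031 and 0.037) and EXPA4 did not (0.099). None of the 3 passed in the 6 libraries alone (adjusted p = 0.14, 0.14 and 0.18), with limma, or on leaving out 1 library. Per transcript length, control leaves held 340 ± 51.4 FPKM of EXPA4 and 302 ± 62.6 of EXPA5, against 11.9 ± 1.59 of EXPL1. At 48 h these levels were 211 ± 11.4, 145 ± 23.0 and 7.27 ± 1.49 FPKM.

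Genes of carbon fixation and of peroxide breakdown had higher means at 48 h, short of the threshold. RCA1, a rubisco activase, stood at 3782, 2976 and 2567 CPM in the controls and at 4598, 3851 and 3898 CPM at 48 h. Groups did not overlap, and the log2 difference was 0.40 ± 0.20 (adjusted p = 0.29). Its relative RCA2 had 12972, 9361 and 8067 CPM in the controls and 13425, 10950.0 and 11006 CPM at 48 h, with overlapping groups and a difference of 0.22 ± 0.20. Catalase went from 3108, 2439 and 2379.9 CPM to 3630.4, 3526 and 3426 CPM, so that every 48 h library was above every control. Its log2 difference of 0.42 ± 0.13 missed the threshold (adjusted p = 0.092), but passed with DESeq2 (adjusted p = 0.027), with limma on FPKM values (adjusted p = 0.048 and 0.04995, with pseudocounts of 0.1 and 1) and without control replicate 1 (0.55, adjusted p = 0.032).

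Other detoxifying enzymes varied between libraries of the same group. GSTU1, a glutathione transferase of the tau class, had 278, 279 and 594 CPM in the controls and 237, 301 and 325 CPM at 48 h. Control replicate 3 stood far above the others, and without it the log2 difference went from −0.42 to 0.04. PPO, a polyphenol oxidase, had 61.0, 48.1 and 74.3 CPM in the controls and 49.8, 91.8 and 103 CPM at 48 h, with overlapping groups.

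Alpha-tubulin was the single named gene to pass. TUA, a subunit of microtubules that is often used as an expression reference, fell from 933, 1128 and 955 CPM in the controls to 750.3, 721 and 556 CPM at 48 h. The mean went from 1005 ± 107 to 676 ± 104 CPM, without overlap, and the log2 difference was −0.57 ± 0.14 (adjusted p = 0.040). The call was lost on leaving out any library other than control replicate 1: the differences were −0.49 and −0.61 without controls 2 and 3, and −0.65, −0.64 and −0.45 without 48 h replicates 1, 2 and 3. It was also lost with the 6 libraries alone (−0.59, adjusted p = 0.19), with the 12 diploid libraries (adjusted p = 0.070) and with the control and 48 h libraries of both ploidies (adjusted p = 0.10). The call held with DESeq2 (adjusted p = 0.0022), with limma (0.034 to 0.048) and under the other scalings and filters (0.035 to 0.046).

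The other expression references did not pass at 48 h. GAPDH, a glycolytic enzyme, had 2283, 1964 and 2294 CPM in the controls and 2429, 2123 and 2026 CPM at 48 h, a log2 difference of 0.01 ± 0.07 that changed sign under several settings. ACT1, an actin, had 178, 219 and 214 CPM in the controls beside 183, 195 and 189.6 CPM. The elongation factor gene EF1-alpha had a difference of −0.16 ± 0.10 with overlapping groups. EF1-gamma, a further translation elongation factor subunit, had 418, 439 and 469 CPM in the controls and 499.9, 526 and 495 CPM at 48 h. Its groups did not overlap, and the difference of 0.20 ± 0.06 missed the threshold (adjusted p = 0.11), passing with DESeq2 (adjusted p = 0.028). At earlier drought times GAPDH passed, with log2 differences of −0.57 at 6 h and −0.99 at 12 h (edgeR, adjusted p = 2.1e-05 and 9.6e-09). EF1-alpha (−0.35, adjusted p = 0.012) and EF1-gamma (0.23, adjusted p = 0.0094) passed at 12 h only, and ACT1 passed at neither time.

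For 4 further named genes the groups overlapped. The log2 differences were 0.34 ± 0.19 for GMP, 0.08 ± 0.11 for Glu-1, −0.57 ± 0.39 for Glu2 and −0.21 ± 0.16 for Zj2-CP. Of the 18 named genes that were tested, 0 passed upward, 1 passed downward and 17 did not pass, beside 2.01% of all genes called. Their groups were apart in 8 of 18 genes, beside 5994 of all tested genes (23.2%). Median log2 difference over the 18 was −0.05.

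**Figure D3:**
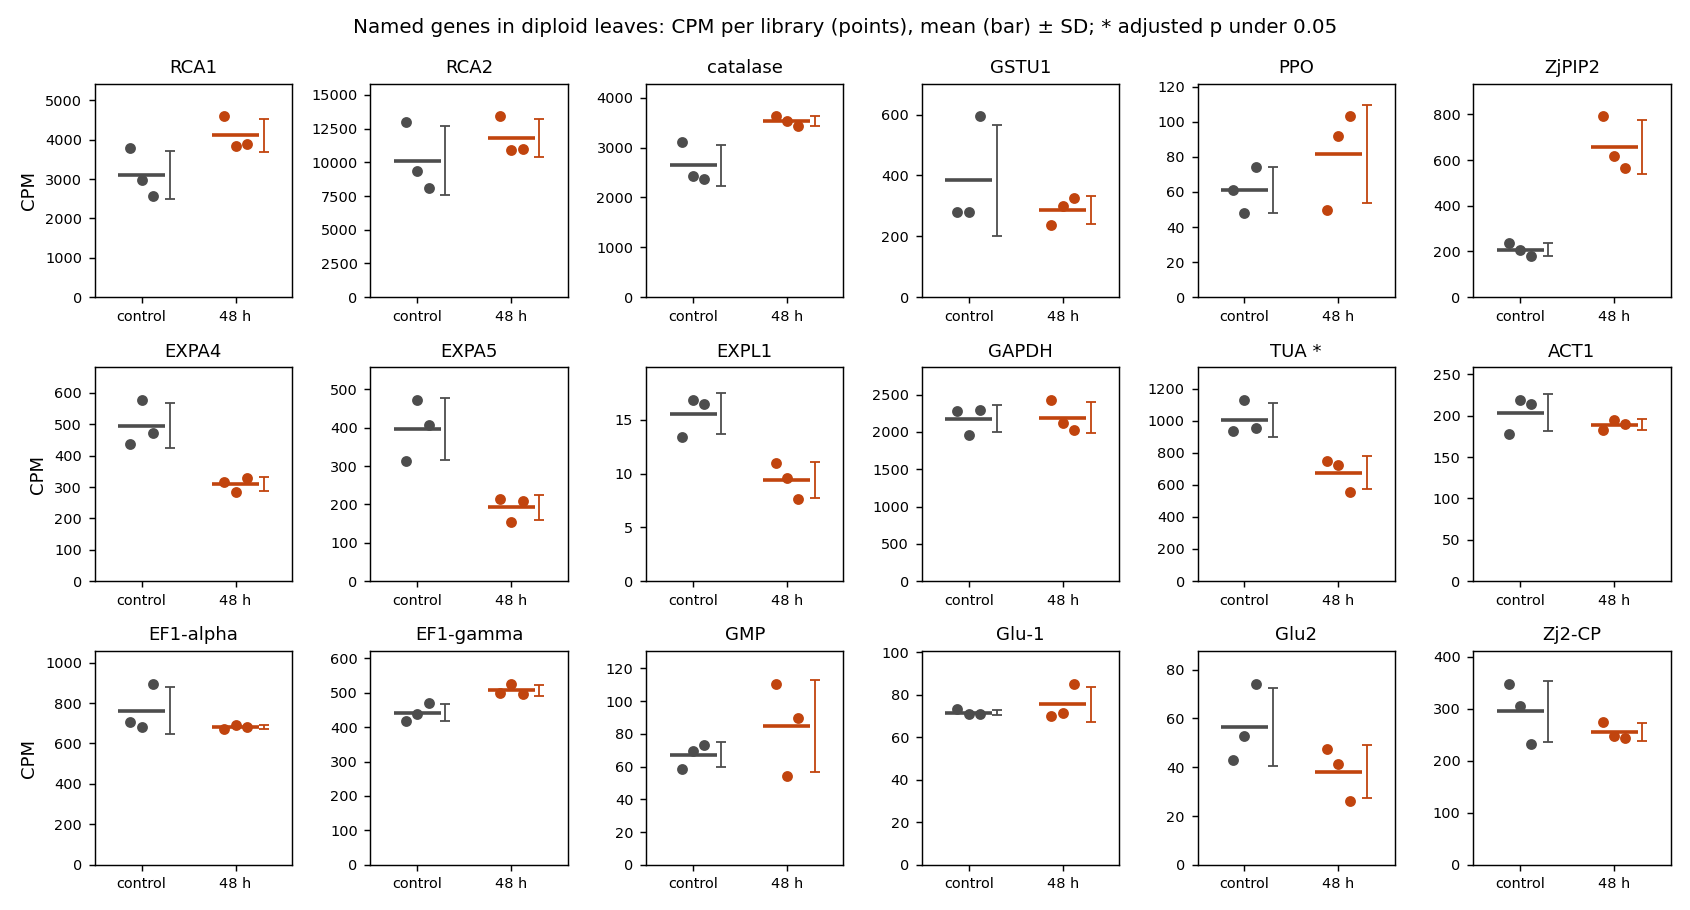
Each panel gives 1 named gene in diploid leaves, with CPM on a linear axis from 0; points are libraries, bars are group means and whiskers are the SD of 3 libraries. ZjPIP2 stands at 564 to 792 CPM at 48 h against 181 to 236 CPM in the controls, the 3 expansins are lower at 48 h without overlap, and TUA alone carries the mark for an adjusted p under 0.05.

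A short list of genes kept its call in every fit that left out a library. Its length was bounded by the fit with the fewest calls, without control replicate 2, which kept 34 of the 520. Being on the list is therefore not a measure of the steadiness of each gene alone. The 20 genes that passed whichever of the 6 libraries was left out were 11 higher and 9 lower at 48 h, and 13 of them changed by under 2-fold, beside 339 of all 520 called genes. This list was drawn up after the results were seen. The sources used here give these genes no name.

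LOC107413230 was the single one of them that also passed in the 6 libraries alone. It fell from 66.6, 66.6 and 52.0 CPM in the controls to 21.0, 18.04 and 17.97 CPM at 48 h. The 48 h libraries lay close together and far below the controls. The log2 difference was −1.70 ± 0.23 (adjusted p = 0.0083), and −1.71 with an adjusted p of 0.031 in the 6 libraries alone. LOC107426949 was about as strong, going from 22.7, 29.7 and 22.4 CPM to 8.43, 10.1 and 6.45 CPM, a difference of −1.59 ± 0.21 (adjusted p = 0.0083). At lower abundance LOC107430134 stood at 1.41, 1.36 and 2.62 CPM in the controls and at 0.105, 0.195 and 0.0506 CPM at 48 h. This was the deepest fall of the 20, by 3.92 ± 0.63 on the log2 scale (adjusted p = 0.011).

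Several falls were shallow but even across libraries. LOC107411359 had 241, 256 and 258 CPM in the controls and 188, 175 and 179 CPM at 48 h, a difference of −0.48 ± 0.07 (adjusted p = 0.0083). LOC107406126 had 18.3, 19.3 and 18.6 CPM against 12.6, 9.86 and 8.40 CPM, a difference of −0.87 ± 0.15. In LOC107430121 the level went from 106, 128 and 130.0 CPM to 87.7, 80.6 and 70.9 CPM. All these groups were apart. LOC107424575, LOC107419960 and LOC107405105 fell by 0.53, 0.73 and 0.39 on the log2 scale.

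Among the rises, LOC107412720 was the largest of the 20. It stood at 11.05, 11.6 and 4.45 CPM in the controls and at 52.4, 49.3 and 77.1 CPM at 48 h, a 6.60-fold rise of 2.72 ± 0.42 on the log2 scale (adjusted p = 0.0099). LOC107420963 rose 3.91-fold, from 17.9, 21.0 and 12.4 CPM to 73.1, 75.2 and 52.5 CPM, a difference of 1.97 ± 0.33. Both genes had 48 h libraries far above every control. Ziziphus_jujuba_newGene_7773, a gene model without a locus number, rose from 5.28, 5.54 and 3.93 CPM to 10.3, 9.97 and 11.3 CPM, a difference of 1.10 ± 0.19. LOC107417223 rose from 0.831, 1.25 and 0.520 CPM to 2.78, 2.65 and 3.999 CPM, 1.87 ± 0.32 on the log2 scale.

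The remaining rises of the 20 were between 0.41 and 0.84 on the log2 scale. LOC107419013 gave nearly the same value in its controls, 112, 112 and 113 CPM, and 143, 149.6 and 156 CPM at 48 h. LOC107414737 was as even at 48 h, with 42.8, 43.1 and 43.1 CPM against 29.5, 32.4 and 32.2 CPM in the controls. LOC107430267 went from 32.5, 27.9 and 27.1 CPM to 49.3, 52.3 and 54.9 CPM, a difference of 0.84 ± 0.13. In each of these genes the groups were apart. LOC107433262, LOC107418551, LOC107412816 and LOC107422793 rose by 0.53, 0.63, 0.54 and 0.79.

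The naming rule took the 10 largest rises and the 10 largest falls among called genes with a mean of 5 CPM or more and no overlap between groups. Of these 20 genes, 1 passed in all 6 fits that left out a library, 6 passed in 5 of them, 1 in 3, 3 in 2, 7 in a single fit and 2 in none. Of all 520 called genes, 20 passed in all 6 fits and 34 in 5. LOC107412720 is on both lists. A call lost on leaving out a library does not by itself show that the gene leaned on that library. Over all tested genes only 36 passed without control replicate 2, against 849 without control replicate 1.

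LOC107421878 had the largest rise taken by the rule, from 1.32, 1.47 and 0.430 CPM to 23.6, 13.7 and 44.0 CPM. The difference was 4.66 ± 0.83 on the log2 scale (adjusted p = 0.013), and it was lost without control replicate 2 (4.94, adjusted p = 0.062). LOC107417991 was more even, going from 2.20, 2.05 and 2.94 CPM to 15.2, 17.7 and 16.0 CPM, a difference of 2.76 ± 0.47 (adjusted p = 0.011). It too was lost without control 2 (2.65, adjusted p = 0.062), and it passed in the 6 libraries alone (adjusted p = 0.021). LOC107410893 stood at 17.3, 14.6 and 5.11 CPM in the controls and at 135, 86.4 and 53.2 CPM at 48 h, with a difference of 2.89, lost without control 2 (3.02).

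LOC107415148 and LOC107415149, neighbours in the reference gene order, rose together. The first went from 2.09, 0.526 and 0.339 CPM to 26.2, 18.3 and 10.4 CPM, a difference of 4.20 ± 0.90, and among the fits that left out a library passed only without control replicate 1 (5.39). The other went from 1.44, 4.15 and 0.724 CPM to 24.4, 21.5 and 16.6 CPM, a difference of 3.31 ± 0.64. Among the fits that left out a library it was lost only without control 3 (2.90, adjusted p = 0.057), and it moved to 4.26 without control 2. In the 6 libraries alone it did not pass (adjusted p = 0.157). The next gene in that order, LOC107415141, also passed, from 203, 214 and 218 CPM to 246, 251 and 275 CPM (0.28 on the log2 scale, adjusted p = 0.026). Reads shared by near-identical copies would make such values uncertain, and the sources do not say how shared reads were counted. Over the whole table, 15 of 432 called genes with a tested next neighbour had a called neighbour too (3.47%), 13 of them in the same direction. This is near the share of called genes among all placed genes with a tested next neighbour (2.49%).

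The rise of LOC107415026 leaned on a single library. The gene had 1.95, 4.23 and 4.52 CPM in the controls and 8.68, 6.09 and 47.9 CPM at 48 h, so 48 h replicate 3 stood far above the others. Its difference of 2.55 ± 0.61 (adjusted p = 0.039) became 1.04 (adjusted p = 0.27) without that library, and the call was also lost without any of the 3 controls (2.26, 2.68 and 2.76). LOC107414479 rose in every library, from 7.84, 8.995 and 6.33 CPM to 82.9, 51.9 and 43.9 CPM (2.95 ± 0.71, adjusted p = 0.040), yet lost its call in all 6 fits that left out a library, where the difference stayed between 2.64 and 3.12. In the 6 libraries alone it passed (adjusted p = 0.046). LOC107405444 and LOC107424035 rose by 3.55 and 3.35 on the log2 scale, and each passed only without control 1 among the fits that left out a library, with differences of 3.09 to 3.95 and 2.90 to 3.67 over those fits.

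LOC107403719 gave the deepest fall of the rule and the widest controls. Its controls stood at 135, 20.4 and 669 CPM, beside 3.72, 2.48 and 8.07 CPM at 48 h, so the groups were apart although the control values spanned more than an order of magnitude. The difference was −5.85 ± 1.09 on the log2 scale (adjusted p = 0.015), and it ranged from −4.03 without control 3 to −6.46 without 48 h replicate 3. The call was lost without 48 h replicate 1 (−5.69), 2 (−5.56) or 3 (−6.46).

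Other falls by the rule had tighter controls. LOC107414258 went from 9.72, 10.8 and 12.1 CPM to 0.815, 1.79 and 0.532 CPM, a difference of −3.38 ± 0.81. LOC107407673 went from 16.6, 19.7 and 24.6 CPM to 2.86, 2.60 and 1.34 CPM, a difference of −3.16 ± 0.65. Both groups were well apart, but among the fits that left out a library each passed only without control 1. LOC107414258 moved to −4.02 without 48 h replicate 2. LOC107431282 fell from 42.6, 46.8 and 60.6 CPM to 13.1, 14.0 and 13.6 CPM (−1.88 ± 0.42, adjusted p = 0.027), and passed in the 6 libraries alone as well (adjusted p = 0.031), but among the fits that left out a library only without control 1. LOC107418476 fell from 32.2, 67.6 and 68.0 CPM to 11.4, 13.3 and 17.2 CPM (−2.004 ± 0.35), lost without control 2 (−1.86).

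LOC107422767 fell from 25.2, 17.1 and 27.8 CPM to 5.96, 8.43 and 3.32 CPM, a difference of −1.98 ± 0.37 (adjusted p = 0.015), lost without 48 h replicate 3 (−1.70). Its neighbour in the reference order, LOC107422753, stood at 6.06, 5.42 and 11.2 CPM in the controls and 0.481, 0.475 and 0.202 CPM at 48 h. Every control of both genes was above every 48 h library. The falls of LOC107432278, LOC107424513, LOC107432479 and LOC107433474 were 2.55, 2.31, 1.94 and 1.87 on the log2 scale, and the last was lost in all 6 fits that left out a library. LOC107424513 moved to −1.65 without control 3 (adjusted p = 0.15).

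**Figure D4:**
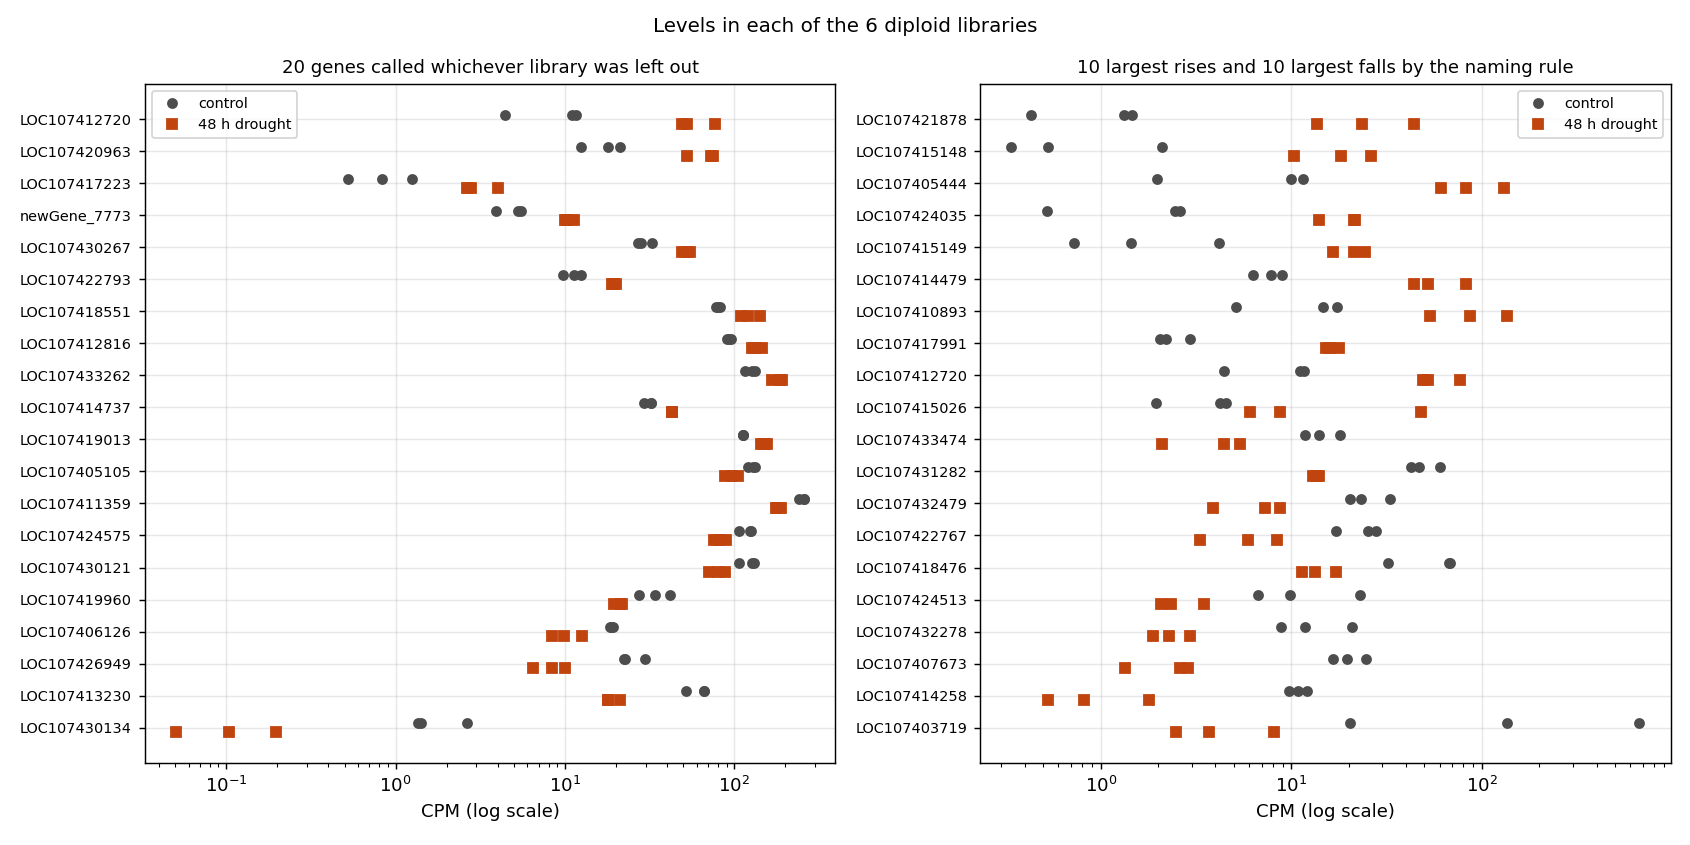
CPM in each of the 6 diploid libraries, on a log scale, for the 20 genes called whichever library was left out (left) and for the 10 largest rises and 10 largest falls by the naming rule (right); grey circles are controls and orange squares are 48 h leaves. In every gene the squares and circles stand apart, and the controls of LOC107403719 run from 20.4 to 669 CPM.

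At the earlier drought times the same genes did not all stand where they stood at 48 h. The 6 h and 12 h comparisons share the diploid controls with the 48 h comparison, so the values are given side by side. Genes called higher at 48 h had a median log2 difference of 0.37 at 6 h and 0.42 at 12 h, and genes called lower had −0.44 and −0.47. Over all tested genes these medians were −0.00 and 0.00.

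LOC107417223 was highest at 12 h: beside 0.865 ± 0.364 CPM in the controls and 3.14 ± 0.743 CPM at 48 h it had 9.69 ± 3.69 CPM at 6 h and 97.7 ± 4.10 CPM at 12 h. LOC107430267 stood at 121 ± 2.72 CPM at 6 h and 141 ± 12.5 CPM at 12 h, against 52.1 ± 2.80 CPM at 48 h. LOC107431282 was lower at those times than at 48 h, at 7.67 ± 2.82 CPM and 3.22 ± 1.40 CPM beside 13.5 ± 0.450 CPM. These 3 genes stood farther from the controls at the earlier times than at 48 h, and no test was made of the difference between times.

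LOC107406126 passed in the opposite direction before 48 h. It stood at 26.1 ± 1.34 CPM at 6 h and 28.7 ± 3.69 CPM at 12 h, above its controls at 18.7 ± 0.515 CPM, and fell to 10.3 ± 2.12 CPM at 48 h. LOC107426949 had 29.9 ± 3.30 CPM at 6 h and 20.2 ± 1.48 CPM at 12 h, beside 25.0 ± 4.13 CPM in the controls. Here neither earlier time passed, with log2 differences of 0.26 and −0.30. RCA1 stood at 1965 ± 590.3 CPM at 6 h and 202 ± 26.3 CPM at 12 h, beside 3108 ± 618 CPM in the controls and 4115 ± 419 CPM at 48 h. The harvest hour is not given, so drought and hour of day cannot be told apart in these values.

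In the autotetraploid nearly all called genes had the same direction. Its libraries enter none of the diploid group means, but they share the model, and so the estimates of spread behind both call lists. Autotetraploid leaves at 48 h differed from their own controls in 3490 of 25829 genes (13.5%). Of the 520 diploid calls, 510 had the same sign in the autotetraploid (98.1%, beside 70.9% of all tested genes). Called in the same direction were 394 genes, which is 75.8% of the diploid list and 11.3% of the autotetraploid list, and 0 were called in the opposite direction. Of all tested genes, 12.9% were called in the autotetraploid with the same sign in the diploid. Among the higher genes 205 were called in both ploidies (71.9%), and among the lower genes 189 (80.4%). The autotetraploid differences were of like size, with a median log2 difference of 0.56 for the genes called higher in the diploid and −0.90 for those called lower. At least as large in the autotetraploid were 253 of the 520.

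All 20 genes that passed whichever library was left out had the same sign in the autotetraploid, and 18 passed there. Over all tested genes, 70.9% had the same sign and 12.9% also passed there. LOC107413230 differed by −2.16 in the autotetraploid and LOC107412720 by 3.52. The exceptions were LOC107424575, at −0.26 with an adjusted p of 0.0502, and Ziziphus_jujuba_newGene_7773, at 0.36 with an adjusted p of 0.23. Among the largest rises all 10 also passed in the autotetraploid, and among the largest falls 7 did. LOC107403719 was one that did not: its autotetraploid controls stood at 19.1 ± 2.48 CPM, near the lowest of the diploid controls, and its 48 h leaves at 7.93 ± 3.82 CPM. LOC107424513 had 5.05 ± 2.93 CPM in the autotetraploid controls and 4.48 ± 2.96 CPM at 48 h, a log2 difference of −0.17, and LOC107414258 had −2.35 with an adjusted p of 0.053.

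No gene passed a test of the difference between the responses of the ploidies with edgeR (0 of 25829, 0%). The smallest adjusted p was 0.246, and 1626 genes (6.30%) had an unadjusted p under 0.05. DESeq2 called 162 and limma on log2 CPM called 0. The differences with small unadjusted p included LOC107403719 (−4.59, unadjusted p = 0.0028), LOC107422767 (1.59, unadjusted p = 0.0056) and TUA (0.45, unadjusted p = 0.032), where each value is the diploid log2 difference minus that of the autotetraploid. Others were LOC107424513 (−2.14, unadjusted p = 0.012), Ziziphus_jujuba_newGene_7773 (0.73, unadjusted p = 0.014), Glu2 (1.33, unadjusted p = 0.026) and LOC107424575 (−0.27, unadjusted p = 0.040). Apart from TUA and Glu2, these genes were picked by their diploid difference. That difference is part of what is tested here, so their unadjusted p-values are affected by the choice. TUA differed by −1.03 ± 0.14 in the autotetraploid and by −0.57 ± 0.14 in the diploid.

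**Figure D5:**
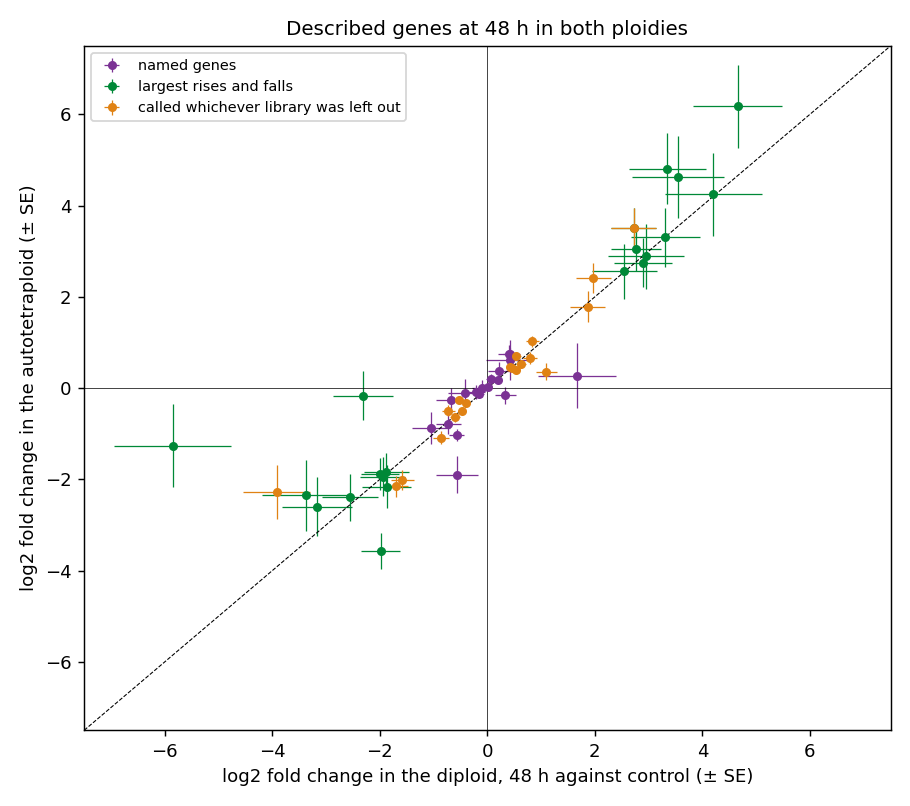
Log2 fold change at 48 h against control in the diploid (horizontal) and in the autotetraploid (vertical), with standard errors as whiskers, for the named genes (purple), the largest rises and falls (green) and the genes called whichever library was left out (orange); the dashed line marks equal values. All green and orange points lie at the upper right or lower left, where both ploidies have the same sign, and LOC107403719 lies off the line at −5.85 in the diploid and −1.27 in the autotetraploid.

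The short call list stood beside small distances between the 6 libraries. The median absolute log2 difference between libraries, over 21422 genes of 1 CPM or more, was 0.201 to 0.291 among controls and 0.169 to 0.199 among 48 h leaves. Between both groups it was 0.204 to 0.326, so that the closest pair across groups was about as near as the closest controls. Between the 12 h leaves and the controls it was 0.417 to 0.440. Controls varied more, with a median coefficient of variation of 15.5% per gene beside 11.6% at 48 h. On the first principal component of the 6 libraries, which held 29.2% of the variance, all 3 controls lay at −75.1 to −22.2 and all 3 of the 48 h libraries at 26.2 to 72.1.

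Some genes, none of them called, varied widely among replicates. In 487 of the tested genes (1.89%) a group held a library with 5 CPM or more that exceeded its lowest library by 50 times or more. LOC107424040, for example, had 627, 664 and 8.68 CPM in the controls and 564, 468 and 411 CPM at 48 h. LOC107432763 had 1054.93, 17.4 and 246 CPM in the controls and 903, 982 and 651 CPM at 48 h. They made up 4.84% of LOC identifiers missing from the reference table, 1.59% of gene models without a locus number and 0.956% of genes listed there as protein-coding. Called genes were 2.50% of protein-coding genes (429 of 17149), 1.03% of the identifiers missing from that table and 1.05% of the models without a locus number.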

How the data were processed

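RNA-seq of total RNA from leaves (100 mg of leaf and 1 µg of RNA per library, per the labels) gave 8 groups of 3 libraries. The deposited table holds gene counts as raw whole numbers, per the file headers. Deposited FPKM tables (fragments scaled by length and library total, per the file headers) served for levels per length and an alternative test. HISAT2 and StringTie are named in the submitters' processing notes; their versions, the genome build, annotation and strand use are not given in the sources used here. No label ties the replicates of a group to separate plants. The p-values therefore cover only the variation among the libraries, and part or all of it may be technical.

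Names and gene order came from a RefSeq table of the ASM3175591v1 assembly, used for nothing else because the build of the counts is not known, which held 19767 of 29293 LOC identifiers; 20 genes carried a name and 18 of them were tested. The count model was fitted with edgeR 4.0.16 (R 4.3.3): filterByExpr by group, TMM scaling, and 1 model of 8 group means over all 24 libraries (16 residual degrees of freedom), with quasi-likelihood tests adjusted over 25829 genes by Benjamini-Hochberg and called at 0.05. The standard error is the absolute log2 fold change divided by the square root of F. Alternatives used DESeq2 1.42.0, limma 3.58.1, with pseudocounts of 1 and 0.1 on FPKM, other scalings and filters, fewer libraries and each library left out.

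Genes named were all those with a name, and in each direction the 10 called genes of largest fold change with a mean of 5 CPM, groups apart and no group with a library of 5 CPM or more at 50 times its lowest. A rule on genes called in every fit gave 1 gene, so the 20 called whichever library was left out were added after the results were seen. Members and lists were chosen with earlier results of these data known. Lists that needed descriptions or protein sequences could not be evaluated.

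On counts simulated for this comparison, with 200 of 25829 genes changed, 46% of 2-fold and 82% of 4-fold changes were found, with 7 false calls among 135. With the 6 libraries alone, 22% and 65% were found, with 3 false among 90. DESeq2 found 58% and 89%, with 71 false among 218. These rates describe the simulated counts, and whether they hold for the real libraries was not tested. The real groups differed in spread, with a median coefficient of variation of 15.5% in controls and 11.6% at 48 h. Their call count ran from 36 to 849 on leaving out a library.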

Additional observations from a re-analysis of the deposited data

How the results depend on the processing

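The direction of the described genes rarely changed with the processing, but the number of calls did. The count of 520 became 25 with only the libraries compared, 16 with the control and 48 h libraries of both ploidies, 1835 with DESeq2 and between 36 and 849 on leaving out 1 library. It was 399 to 642 under the other settings except the block given below. Among these, the 12 diploid libraries gave 567 genes, 338 of them among the 520. The rest of these settings kept 398 to 513 of the 520. For the difference between ploidies, the count of 0 became 1 with only the libraries compared, 162 with DESeq2, 3 with limma on log2(FPKM + 0.1), and 0 to 5 on leaving out 1 library. The cause was not tested. With a replicate block 367 genes passed, 356 of them among the 520, and TUA (adjusted p = 0.052), LOC107405444, LOC107415026 and LOC107424513 did not. Correlations of same-numbered libraries were 0.077, 0.028 and −0.0002, so the numbers were not taken to pair the libraries. Sign changed for GAPDH, to −0.0123 with library totals alone, −0.00822 with only the libraries compared, −0.00777 with the control and 48 h libraries of both ploidies, −0.00344 without a filter and −0.00415 with the 12 diploid libraries, and it ran from −0.0719 to 0.0586 on leaving out 1 library. It changed for GSTU1 (−0.613 to 0.0446) and Glu-1 (−0.0203 to 0.135) on leaving out 1 library. None of the other named genes, of the 20 called whichever library was left out or of the largest rises and falls changed sign under any setting run; the other genes mentioned were not run under the alternatives. Genes below the count filter were not tested at this depth. With 3 libraries a group, 46% of simulated 2-fold changes passed, and whether that rate holds for the real libraries was not tested. A gene that did not pass is not shown to be unaltered.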
